A study of Mus musculus with 6 samples.

Results

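Transcript levels of 10 genes of the Hippo pathway were described in whole hearts of 7-day-old mice, 3 from GR-cKO animals and 3 from control animals. The genes were the kinase genes Stk3, Stk4, Lats1 and Lats2, the adaptor gene Sav1, the angiomotin family gene Amotl2, the coactivator genes Yap1 and Wwtr1, and the transcription factor genes Tead1 and Tead2. They were taken by symbol from the GRCm38 mouse annotation, and all 10 were found among the 52550 mouse genes of the count files. GR-cKO mice lack Nr3c1, which encodes the glucocorticoid receptor, in their cardiomyocytes, and animals of the other group are labelled ctrl. The sources used here do not give the deleted exon, the driver of the deletion, the genotype of the controls or the strain. Each library came from a separate biological replicate per the labels, and reads of Xist and of Y-linked genes called 1 female and 2 male libraries in each group.

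The Hippo pathway is a kinase cascade that restrains growth of organs. STK3 and STK4 (also called MST2 and MST1), held by the scaffold protein SAV1, activate LATS1 and LATS2, and these phosphorylate the coactivators YAP1 and TAZ, the product of Wwtr1, which are then kept out of the nucleus or degraded. Coactivators that escape phosphorylation enter the nucleus and switch on genes through the TEAD DNA-binding proteins. In the mouse heart this output is known to favour division of fetal and newborn cardiomyocytes, and loss of Sav1 or of the LATS kinases is known to extend it. The cascade acts mainly through phosphorylation, which transcript levels do not measure.

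The libraries held 18135540 to 20988286 reads in GR-cKO and 19209410 to 22999192 reads in control hearts. Nr3c1 was at 57.5, 49.2 and 56.2 CPM (its reads relative to all mouse gene reads of the library, scaled between libraries) in GR-cKO hearts, against 114, 131 and 99.6 CPM in control hearts (edgeR adjusted p = 0.00101), with a log2 fold change of -1.08 ± 0.125 (SE). Its 3′ reads need not lie in the deleted part. All 10 cardiomyocyte markers were detected, and their summed level was 49494 to 61390 CPM in GR-cKO and 49628 to 52888 CPM in control hearts. GR-cKO replicate 3 stood apart from the other libraries. The transcript Gm42418 took 10.9% of its reads, against 5.47 to 7.69% elsewhere, and 16 cycling-cell markers summed to 419 CPM there, against 644 to 752 CPM in the remaining 5. The 10 fibroblast markers summed to 4205 to 4408 CPM in GR-cKO and 4428 to 5385 CPM in control hearts, and the 10 mural cell markers to 1980 to 2217 CPM in GR-cKO and 1698 to 1933 CPM in control hearts. When each gene was centred on its mean log2 CPM and the list averaged, the groups overlapped for both lists. For the fibroblast list this overlap was very narrow, with GR-cKO replicate 2 at -0.0309 and control replicate 3 at -0.0315. The median log2 fold change was -0.11 for the fibroblast and -0.03 for the mural cell markers. No gene on these marker lists passed the test on its own, and their part in the values given here was not tested. In a bulk sample, fewer cells of a type and less RNA per cell cannot be told apart.

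None of the 10 Hippo pathway genes passed the edgeR test between GR-cKO and control hearts. At an adjusted p under 0.05, 0.00673% of the 14860 tested genes were called, that is 1 gene, Nr3c1. The smallest adjusted p among the 10 genes was 0.998. At an unadjusted p under 0.05, 1 of the 10 genes was lower (Sav1) and 0 were higher, where 4.2% of all tested genes passed in either direction and 2.13% passed downward. DESeq2 and limma voom called 0 of the 10 genes as well. Log2 fold changes ran from -0.41 for Sav1 to 0.14 for Lats1, with 7 negative and 3 positive values and a median of -0.05, beside a median of 0.01 over all tested genes. Of all 14860 tested genes, 7241 had negative and 7619 positive values.

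The measurements were tight enough to bound the differences in whole-heart transcript levels. Levels in cardiomyocytes alone were not measured, so the bounds do not extend to them. The 95% interval of the fold change excluded a 2-fold change in either direction for all 10 genes, beside 72.2% of all tested genes. It excluded a 1.5-fold change for 9 of the 10, all but Sav1, beside 47.8% of all tested genes. The median SE of the log2 fold change was 0.149 for the 10 genes and 0.207 for all tested genes. Each of the 10 had at least 180 reads in every library.

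**Figure D1:**
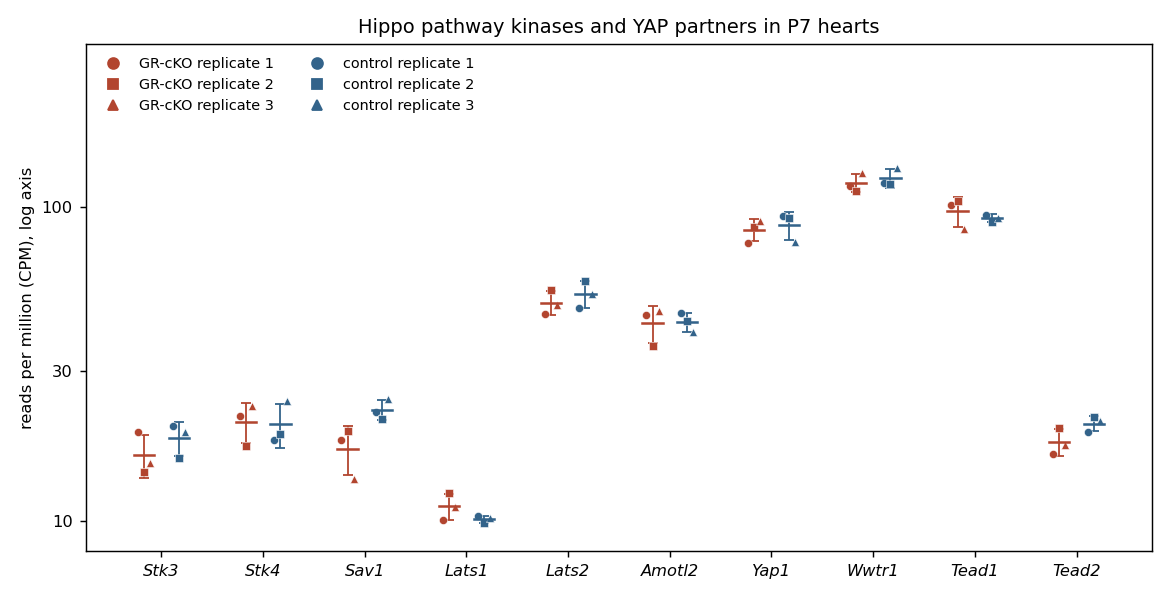
Level of each Hippo pathway gene in CPM on a log axis, with 1 point per library, a bar for the group mean and error bars of 1 SD (n = 3 each). GR-cKO libraries are red and control libraries blue, and Sav1 is the gene whose GR-cKO points all lie below the control points.

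Among the upstream kinases and their scaffold, Sav1 showed the lowest fold change. Sav1 (ENSMUSG00000021067, GRCm38 chromosome 12, 69965012 to 69987002, minus strand) encodes the scaffold that joins the STK3 and STK4 kinases to the LATS kinases. It was at 18.0, 19.3 and 13.5 CPM in GR-cKO replicates 1, 2 and 3, against 22.2, 21.04 and 24.3 CPM in control replicates 1, 2 and 3. All 3 GR-cKO hearts lay below all 3 control hearts, with GR-cKO replicate 3 lowest. Groups lay apart in this direction for 5.27% of all tested genes and in either direction for 9.97%. The means were 16.9 ± 3.01 CPM in GR-cKO and 22.5 ± 1.65 CPM in control hearts (SD, n = 3 each). On the log2 scale GR-cKO over control came to -0.41 ± 0.173 (SE), with a 95% interval of -0.77 to -0.05. The unadjusted edgeR p was 0.0287 and the adjusted p 0.998, so Sav1 did not pass. Without GR-cKO replicate 3, the library in which cycling-cell markers were lowest, the log2 fold change was -0.27 (edgeR, unadjusted p = 0.120, adjusted p = 0.964). The part of that library's other features in the Sav1 value was not tested. The 3′ end of Sav1 overlaps exons of Atl1 on the opposite strand, and the sources used here do not say whether reads were counted by strand. Atl1 had 65, 94 and 26 reads in GR-cKO and 113, 66 and 61 reads in control hearts, fewer than the 252 to 409 and 410 to 509 reads of Sav1. Both genes had their fewest reads in GR-cKO replicate 3 (26 and 252). The reads assigned to Atl1 do not show how many reads from the shared part were lost or assigned to the other gene.

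Both kinases that SAV1 binds overlapped between the groups. Stk3 (ENSMUSG00000022329, chromosome 15, 34875496 to 35178921, minus strand) was at 19.1, 14.2 and 15.3 CPM in GR-cKO hearts, against 20.0, 15.8 and 19.2 CPM in control hearts. Replicate 2 was the lowest library of each group. Its log2 fold change was -0.18 (SE 0.180, 95% interval -0.56 to 0.20). Stk4 (ENSMUSG00000018209, chromosome 2, 164070322 to 164155524, plus strand) stood at 21.5, 17.3 and 23.2 CPM in GR-cKO hearts, against 18.0, 18.9 and 24.05 CPM in control hearts. The highest and the second lowest value were both those of control hearts, and the means were 20.6 ± 3.02 and 20.3 ± 3.27 CPM in GR-cKO and control hearts (SD, n = 3 each). Its log2 fold change was 0.02 (SE 0.174, 95% interval -0.34 to 0.39), and -0.02 when libraries were scaled by their totals alone.

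The genes of the LATS kinases, which phosphorylate YAP1 and TAZ directly, did not pass the test. Lats1 (ENSMUSG00000040021, chromosome 10, 7681214 to 7716460, plus strand) stood at 10.04, 12.2 and 11.1 CPM in GR-cKO hearts, against 10.3, 9.80 and 10.2 CPM in control hearts. GR-cKO replicates 2 and 3 were above every control heart and GR-cKO replicate 1 was within the control range. Its log2 fold change was 0.14 (SE 0.202, 95% interval -0.28 to 0.56), the largest positive value of the 10. Lats2 (ENSMUSG00000021959, chromosome 14, 57689662 to 57758388, minus strand), which is also a target gene of YAP and so part of a feedback loop, was at 45.6, 54.2 and 48.5 CPM in GR-cKO hearts, against 47.6, 57.9 and 52.7 CPM in control hearts. The groups overlapped. The log2 fold change of Lats2 was -0.09 (SE 0.128, 95% interval -0.36 to 0.18). An annotated gene on the same strand, Gm49361, shares exon sequence with Lats2 and had 0 reads in all 6 libraries, so a Lats2 read from the shared part may have been lost or kept depending on the counting.

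Amotl2 (ENSMUSG00000032531, chromosome 9, 102716672 to 102733418, plus strand) encodes an angiomotin family protein that binds YAP and holds it in the cytoplasm, and it is a YAP target itself. It was at 45.1, 35.9 and 46.4 CPM in GR-cKO hearts, against 45.7, 43.2 and 39.8 CPM in control hearts. The lowest and the highest of the 6 values were both those of GR-cKO hearts. The means were 42.5 ± 5.69 CPM in GR-cKO and 42.9 ± 2.97 CPM in control hearts (SD, n = 3 each). Amotl2 had a log2 fold change of -0.02 (SE 0.136, 95% interval -0.30 to 0.27). With spike-in scaling the value was 0.02.

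The coactivator genes lay close together in the 2 groups. Yap1 (ENSMUSG00000053110, chromosome 9, 7931999 to 8004596, minus strand) was at 76.9, 86.1 and 90.2 CPM in GR-cKO hearts, against 93.2, 91.8 and 77.2 CPM in control hearts. The ranges were nearly the same. Its log2 fold change was -0.05 (SE 0.118, 95% interval -0.30 to 0.20), a fold interval of 0.813 to 1.15. Wwtr1 (ENSMUSG00000027803, chromosome 3, 57455649 to 57575910, minus strand), the gene of TAZ, was at 117, 113 and 128 CPM in GR-cKO hearts, against 119, 118 and 133 CPM in control hearts. GR-cKO replicate 3 and control replicate 3 were the highest libraries of their groups. The log2 fold change of Wwtr1 was -0.05 (SE 0.113, 95% interval -0.29 to 0.18), a fold interval of 0.818 to 1.14.

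The DNA-binding partners did not pass either. Tead1 (ENSMUSG00000055320, chromosome 7, 112679318 to 112906807, plus strand), known as the TEAD gene needed for heart development, was at 101, 104 and 85.0 CPM in GR-cKO hearts, against 94.3, 89.2 and 92.4 CPM in control hearts. GR-cKO replicates 1 and 2 lay above and GR-cKO replicate 3 below every control heart. Its log2 fold change was 0.08 (SE 0.115, 95% interval -0.17 to 0.32), and 0.16 without GR-cKO replicate 3. Tead2 (ENSMUSG00000030796, chromosome 7, 45215753 to 45233644, plus strand), a TEAD gene best known from the early embryo, was at 16.3, 19.7 and 17.4 CPM in GR-cKO hearts, against 19.1, 21.3 and 20.7 CPM in control hearts. GR-cKO replicate 2 alone reached the control range. The log2 fold change of Tead2 was -0.19 (SE 0.163, 95% interval -0.53 to 0.15). Its 3′ end overlaps Cd37 on the opposite strand, which had 8 to 20 reads in GR-cKO and 10 to 28 reads in control libraries.

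**Figure D2:**
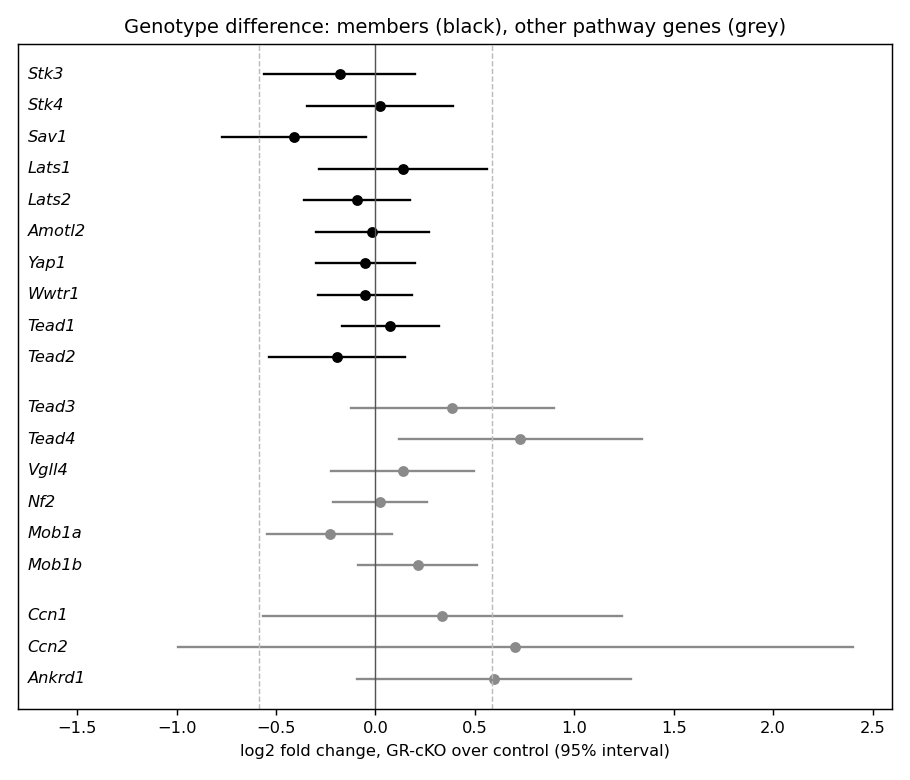
Log2 fold change of GR-cKO over control with its 95% interval for the 10 Hippo pathway genes (black) and for further genes of the pathway and its targets (grey); dashed lines mark a 1.5-fold change. Of the black intervals only that of Sav1, from -0.77 to -0.05, leaves out 0, and only it crosses a dashed line.

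The DNA just before the start of these genes was examined because both the deleted receptor and the TEAD proteins act by binding DNA. RefSeq promoter windows (GRCm38.p6) were matched for 8 of the 10 genes, Yap1, Wwtr1, Tead2, Lats1, Lats2, Stk4, Sav1 and Amotl2, in 10 windows, and the 250 bases before the start were searched on both strands. The TEAD motif GGAATG, or CATTCC on the other strand, was in the windows of 4 of the 8 genes, Yap1, Wwtr1, Sav1 and Amotl2, and in 12.6% of all 32851 windows. The first count is of genes, some of which had more windows than others, and the second is of windows, so they are not directly comparable. The receptor half-site AGAACA, or TGTTCT, was in 0 of the 10 windows and in 16.1% of all windows. A match is not a bound site, and its absence says only that these letters are not in the window. The windows of Sav1 (chr12:69987003-69987252, minus strand), Yap1 (chr9:8004597-8004846, minus strand) and Wwtr1 (chr3:57575911-57576160, minus strand) are printed because they belong to the scaffold gene of lowest fold change and to the coactivator genes. They read 5′ to 3′, end at the base before the start, and carry the TEAD motif in capitals.
Sav1: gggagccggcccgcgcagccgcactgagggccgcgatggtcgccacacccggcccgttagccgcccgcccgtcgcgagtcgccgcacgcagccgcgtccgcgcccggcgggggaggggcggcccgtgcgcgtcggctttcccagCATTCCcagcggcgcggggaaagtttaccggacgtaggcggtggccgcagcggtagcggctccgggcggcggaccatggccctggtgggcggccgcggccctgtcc
Yap1: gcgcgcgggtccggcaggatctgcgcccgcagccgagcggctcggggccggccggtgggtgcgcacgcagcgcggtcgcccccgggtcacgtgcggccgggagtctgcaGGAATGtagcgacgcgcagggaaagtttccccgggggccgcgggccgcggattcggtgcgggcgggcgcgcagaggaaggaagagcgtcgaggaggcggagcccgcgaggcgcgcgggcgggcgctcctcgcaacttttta
Wwtr1: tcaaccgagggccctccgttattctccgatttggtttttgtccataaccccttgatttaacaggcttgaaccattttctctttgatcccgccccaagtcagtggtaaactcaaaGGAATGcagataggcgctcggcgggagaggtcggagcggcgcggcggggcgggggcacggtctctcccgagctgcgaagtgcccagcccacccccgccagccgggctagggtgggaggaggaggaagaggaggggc
The motif began 106 bases before the start in Sav1, 141 bases before it in Yap1 and 136 bases before it in Wwtr1, in the form CATTCC in Sav1 and GGAATG in the other two. Of these 250 bases 79.2% were G or C in Sav1, 76.4% in Yap1 and 61.6% in Wwtr1.

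The 10 genes differed widely in level. These libraries read the 3′ end of each transcript, so that reads follow transcript number and not transcript length, and CPM were compared between genes without dividing by length. In control hearts the order of mean CPM was Wwtr1, Tead1, Yap1, Lats2, Amotl2, Sav1, Tead2, Stk4, Stk3 and Lats1. Wwtr1 stood at 123 ± 8.55 CPM, at the 92.0th percentile of the control mean CPM of tested genes, and Lats1 at 10.09 ± 0.261 CPM (SD, n = 3 each), at the 43.4th percentile. Wwtr1, Tead1 and Yap1 were the 3 most abundant, and the kinase and scaffold transcripts other than Lats2 were, with Tead2, the least.

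Several neighbours in this order could not be separated. Tead1 and Yap1 overlapped in both groups, and so did each neighbouring pair among Sav1, Tead2, Stk4 and Stk3. Lats2 was above Amotl2 in every heart, although their ranges overlapped in GR-cKO hearts (45.6 to 54.2 and 35.9 to 46.4 CPM). The other steps, from Wwtr1 to Tead1, Yap1 to Lats2, Amotl2 to Sav1 and Stk3 to Lats1, had ranges that did not overlap in either group. In GR-cKO hearts the mean of Sav1 (16.9 CPM) was below those of Tead2 (17.8 CPM) and Stk4 (20.6 CPM), whereas in control hearts it was above both (22.5, 20.4 and 20.3 CPM).

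The spread between hearts differed among the genes. In GR-cKO hearts the coefficient of variation of CPM ran from 6.69% for Wwtr1 to 17.8% for Sav1, and in control hearts from 2.58% for Lats1 to 16.1% for Stk4. Counting error alone gives 2.09% for Wwtr1 and 5.60% for Sav1 in GR-cKO hearts, and 6.97% for Lats1 and 4.94% for Stk4 in control hearts. The spread of Lats1 in control hearts was therefore below its counting error, and the spreads of the other 3 were above it. No 1 library was the highest or the lowest for all 10 genes. Each of the 10 was highest in 1 library, and this was a control library for 7 genes and a GR-cKO library for 3. The lowest library was a GR-cKO library for 9 of the 10 genes, namely replicate 1 for 3, replicate 2 for 4 and replicate 3 for 2, and control replicate 2 for 1 gene. These counts have no share over all tested genes beside them, so no lean of the 10 genes is read from them.

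The balance within the gene pairs was also compared, since it does not depend on the scaling of libraries. Wwtr1 took 60.3, 56.7 and 58.6% of the summed Yap1 and Wwtr1 reads in GR-cKO hearts, against 56.1, 56.2 and 63.3% in control hearts. Wwtr1 reads exceeded Yap1 reads in all 6 hearts, and the difference between groups was -0.03 percentage points (exact permutation p = 1.00). Lats2 took 81.9, 81.6 and 81.4% of the summed Lats1 and Lats2 reads in GR-cKO hearts, against 82.2, 85.5 and 83.8% in control hearts. The Lats2 share was lower in every GR-cKO heart, by a mean difference of -2.19 percentage points, with an exact permutation p of 0.1 and an adjusted p of 0.4 over the 4 shares compared. With 3 hearts against 3, a 2-sided exact test cannot give a p below 0.1, so no share could pass a threshold of 0.05. The difference in the Lats2 share was -1.35 percentage points without control replicate 2. The nearest libraries of the groups were GR-cKO replicate 1 (81.9%) and control replicate 1 (82.2%).

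Stk4 took 53.0, 54.9 and 60.3% of the summed Stk3 and Stk4 reads in GR-cKO hearts, against 47.4, 54.4 and 55.6% in control hearts. The groups overlapped (difference 3.55 percentage points, exact permutation p = 0.5). The difference was 0.995 percentage points without control replicate 1 and 1.43 without GR-cKO replicate 3. Tead1 took 77.3, 74.9 and 68.9% of the reads of all 4 TEAD genes in GR-cKO hearts, against 74.7, 72.9 and 74.7% in control hearts. It was the main TEAD transcript in every heart, and the difference was -0.41 percentage points (exact permutation p = 1.00). Without GR-cKO replicate 3, in which Tead3 was high, the difference was 1.99 percentage points.

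**Figure D3:**
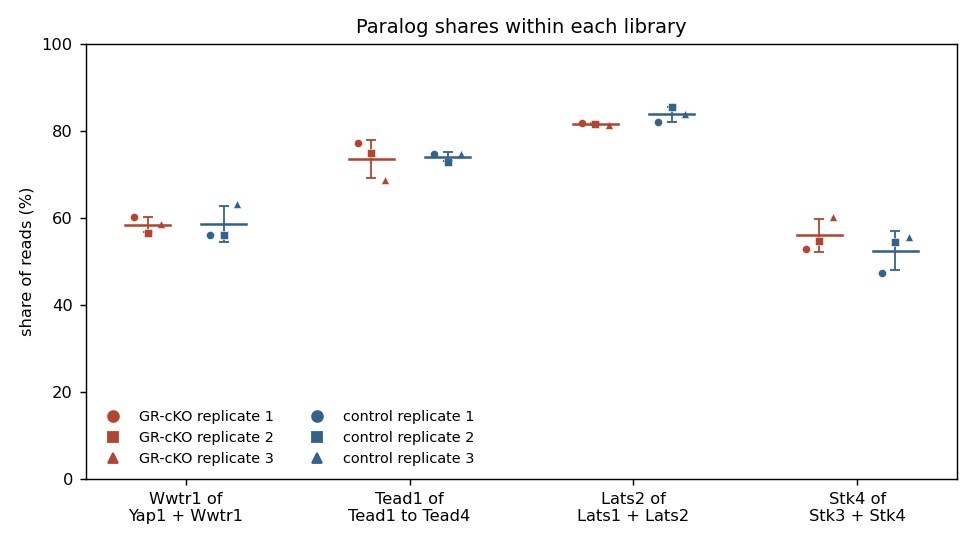
Share of reads, in percent, of 1 gene among its paralogs in each library, with group means and error bars of 1 SD (n = 3 each); GR-cKO libraries are red and control libraries blue. Wwtr1 exceeds 50% in all 6 hearts, and the Lats2 shares lie between 81.4 and 81.9% in GR-cKO and between 82.2 and 85.5% in control hearts.

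Of 6 TEAD and TEAD cofactor genes on a list, 4 were tested and 0 passed in edgeR, DESeq2 or limma voom. At an unadjusted edgeR p under 0.05, 1 was higher (308 of all 14860 tested genes) and 0 were lower (316 of 14860). On this list 3 log2 fold changes were positive and 1 negative, and the median was 0.26, beside 0.01 over all tested genes. Vgll1 had 0 reads and Vgll2 at most a few reads, and neither was tested. Tead4, a TEAD gene known from skeletal muscle and the early embryo, was at 4.57, 6.36 and 5.64 CPM in GR-cKO hearts, against 3.67, 3.13 and 3.20 CPM in control hearts. All 3 GR-cKO hearts were above the control hearts, as for 4.7% of all tested genes, and the log2 fold change of 0.73 (SE 0.292) did not pass, with an unadjusted edgeR p of 0.0223 and an adjusted p of 0.998. Tead3 was at 8.98, 8.90 and 15.4 CPM in GR-cKO hearts, against 9.22, 8.78 and 7.44 CPM in control hearts. GR-cKO replicate 3 alone was high, and the log2 fold change of Tead3 was 0.39 on all hearts and 0.08 without that library. Vgll4, whose product competes with YAP for TEAD, was at 39.5, 32.2 and 25.4 CPM in GR-cKO hearts, against 32.7, 23.8 and 31.8 CPM in control hearts. The groups overlapped. Vgll3, another TEAD cofactor, was at 2.09 ± 0.272 CPM in GR-cKO and 3.11 ± 0.481 CPM in control hearts (SD, n = 3 each). This is -0.57 on the log2 scale (SE 0.373). All 3 GR-cKO hearts were below the control hearts for Vgll3, as for 5.27% of all tested genes. Of the 4 tested genes the groups thus lay apart upward for 1, Tead4, and downward for 1, Vgll3.

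Of 34 genes that act on the kinase cascade or on YAP, all were tested and 0 passed in edgeR, DESeq2 or limma voom. At an unadjusted edgeR p under 0.05, 1 was higher (308 of all 14860 tested genes) and 0 were lower (316 of 14860). Log2 fold changes of the 34 genes were positive for 25 and negative for 9, with a median of 0.05. Of all 14860 tested genes, 7619 had positive values. Nf2, the gene of Merlin, which recruits LATS kinases to the membrane, was at 73.6, 68.2 and 74.3 CPM in GR-cKO hearts, against 74.2, 67.5 and 71.0 CPM in control hearts. Its groups were almost level (log2 fold change 0.02, 95% interval -0.21 to 0.26). The 2 genes of the LATS activator MOB1 leaned in opposite directions. Mob1a was at 38.3 ± 6.88 CPM in GR-cKO and 44.9 ± 6.01 CPM in control hearts (log2 fold change -0.23, SE 0.150), and Mob1b at 40.6 ± 5.64 and 35.02 ± 3.74 CPM (0.21, SE 0.143; SD, n = 3 each). The 3 list genes of smallest p were Rassf1, Stk38 and Strn3. Rassf1, whose product binds the STK3 and STK4 kinases, was at 37.6, 37.1 and 44.8 CPM in GR-cKO hearts, against 32.1, 25.5 and 35.2 CPM in control hearts, which is 0.36 on the log2 scale (SE 0.149, with an adjusted p of 0.998 in edgeR). Stk38, a kinase related to LATS, had a log2 fold change of 0.25 (SE 0.135), and Strn3, a subunit of a phosphatase complex that acts on STK3 and STK4, one of 0.19 (SE 0.111). These 3 genes were picked by smallest p, which favours groups that lie apart. Over the list of 34, all GR-cKO hearts lay above the control hearts for 3 genes, these 3. They lay below for 2 genes, Amotl1 and Wtip, named after their values were seen. Over all tested genes the shares were 4.7% above and 5.27% below.

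Target genes of YAP gave no call. Of 20 listed targets, beside Lats2 and Amotl2, 19 were tested and 0 passed in edgeR, DESeq2 or limma voom. Among the 19, 0 had an unadjusted edgeR p under 0.05, beside 4.2% of all tested genes. Log2 fold changes of the 19 were positive for 13 and negative for 6, with a median of 0.13. Of all 14860 tested genes, 7619 had positive values. Foxf2 had 0 reads, and Ptpn14 is also on the list of cascade regulators. Ccn2, a secreted matrix protein and a standard YAP target, was at 92.4, 77.01 and 295 CPM in GR-cKO hearts, against 100.0, 88.3 and 96.9 CPM in control hearts. GR-cKO replicate 3 alone was high. The log2 fold change of Ccn2 was 0.70 (SE 0.622) on all hearts and -0.17 without that library. Ankrd1, which encodes a cardiac ankyrin repeat protein that also responds to stretch, was at 945, 1078 and 1989 CPM in GR-cKO hearts, against 811, 893 and 952 CPM in control hearts. Its highest library was again GR-cKO replicate 3, and its log2 fold change of 0.60 (SE 0.285, 95% interval -0.09 to 1.28) was 0.19 without it. Its unadjusted edgeR p was 0.0792, and it was 0.000908 with spike-in scaling, 0.00271 with the replicate block, 0.0181 with library sex as a term, 0.0241 with no filter, 0.0490 by library totals alone, 0.00273 without GR-cKO replicate 1 and 0.0366 without GR-cKO replicate 2, with an adjusted p of at least 0.848 in each of these fits. It was 0.0683 without GR-cKO replicate 3, and 0.142, 0.164 and 0.107 without control replicates 1, 2 and 3. The unadjusted p was 0.0973 in DESeq2 and 0.128 in limma voom. Ccn1, a relative of Ccn2, was at 25.0, 56.9 and 36.6 CPM in GR-cKO hearts, against 44.4, 25.1 and 24.4 CPM in control hearts. It varied widely in both groups, and GR-cKO replicate 3 was not its highest library. Axl, a receptor tyrosine kinase, was at 93.0, 96.7 and 88.3 CPM in GR-cKO hearts, against 101, 107 and 107 CPM in control hearts. Its log2 fold change of -0.18 (SE 0.109) did not pass (edgeR adjusted p = 0.998). Axl was picked for its small p, which favours groups that lie apart. Over the 19 tested targets, all GR-cKO hearts lay below the control hearts for 1, Axl. They lay above for 2, Myof and Tgfb2, named after their values were seen. Over all tested genes the shares were 5.27% below and 4.7% above.

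**Figure D4:**
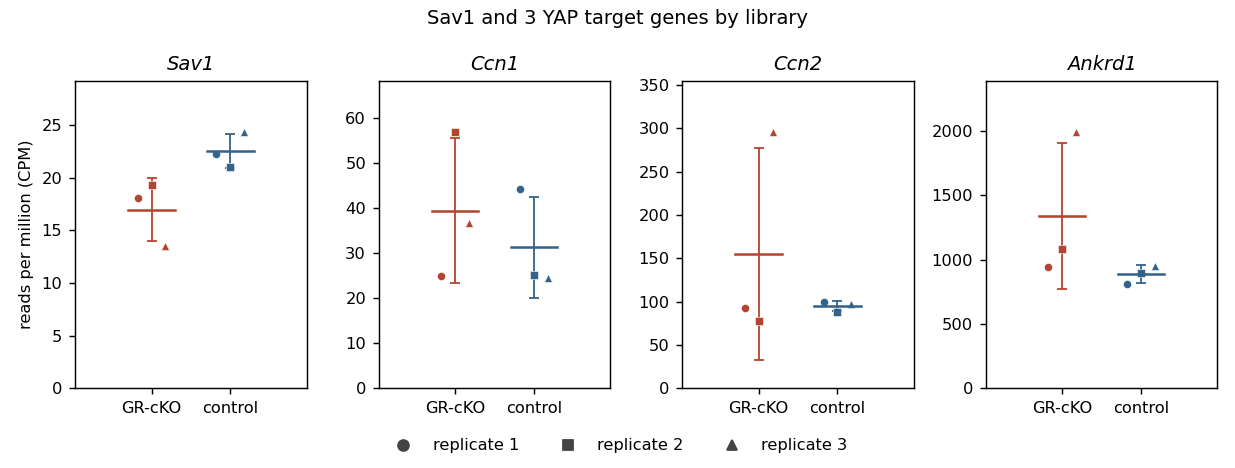
CPM of Sav1 and of the YAP targets Ccn1, Ccn2 and Ankrd1 in each library, with GR-cKO at the left and control at the right of each panel, group means and error bars of 1 SD (n = 3 each), and axes that start at 0. The triangle of GR-cKO replicate 3 is the lowest Sav1 value (13.5 CPM) and the highest Ccn2 (295 CPM) and Ankrd1 (1989 CPM) value.

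Without GR-cKO replicate 3 the 10 Hippo pathway genes also gave 0 calls, with a smallest adjusted p of 0.964 and 0 genes at an unadjusted edgeR p under 0.05. Their log2 fold changes then ran from -0.27 for Sav1 to 0.16 for Tead1, with a median of -0.09, and 8 were negative. In that fit, 383 of 15385 tested genes were higher and 407 lower at an unadjusted edgeR p under 0.05.

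The genes whose pattern over the 6 libraries was most like that of Yap1 were sought among 10228 tested genes with a mean of at least 5 CPM. The measure was the root mean square difference of log2 CPM, each gene centred on its own mean. The nearest were Sema4c, a semaphorin gene, at 0.0196, Rpia, which encodes ribose-5-phosphate isomerase, at 0.0339, and Lin7c, a cell polarity scaffold gene, at 0.0342. As many as 547 genes lay within 0.1 of Yap1, so that many genes were nearly as close as these 3. Of the other 9 Hippo pathway genes, Lats1 and Lats2 were the nearest to Yap1, both at 0.143, and Sav1 the farthest at 0.311. All 9 lay farther from Yap1 than those 547 genes.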

How the data were processed

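Each deposited file gives 1 library's raw counts, that is, reads assigned to each Ensembl gene. Per the labels' protocols, libraries were made from 100 ng of total heart RNA with a QuantSeq 3′ mRNA-Seq FWD kit. The submitters' processing notes name STAR 2.5.4a, featureCounts 1.6.2, DESeq2 1.18.1 and the build GRCm38; the sources used here do not give the annotation release, strand setting or filters. Symbols and coordinates came from GENCODE M21 (GRCm38), which matched 52403 of 52550 mouse gene rows. The 92 ERCC and 7 SIRV spike-in rows entered neither library sizes nor tests.

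With edgeR 4.0.16 in R 4.3.3, filterByExpr by group kept 14860 genes. Libraries were scaled by TMM, and genotype was tested with the quasi-likelihood F test (robust), with p-values adjusted by Benjamini-Hochberg over all tested genes at a threshold of 0.05. CPM are relative to all mouse gene reads, scaled by TMM; log2 CPM used 2 as prior count. Fold changes divide GR-cKO by control. Counting error is the inverse square root of the reads, and these reads carry no molecular identifiers, so that it covers counting alone. Shares were compared by 2-sided exact permutation tests (scipy 1.17.1). The fit was tested on simulated counts. Alternatives were DESeq2 1.42.0, limma 3.58.1 voom, other scalings, no filter, a term for replicate number or library sex, and each library left out.

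The members and lists were chosen with earlier results of these data known. Genes beyond the 10 were named by a rule: Nr3c1, 9 further pathway and target genes, the 3 of smallest p on each list, and the 3 nearest to Yap1; 1 of these is not reported here. The closest pair of libraries in a group had a chi-square per degree of freedom of 11.2, so none was counted as a copy.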

Additional observations from a re-analysis of the deposited data

How the results depend on the processing

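No alternative called any of the 10 Hippo pathway genes or any gene of the lists of cascade regulators, TEAD partners and YAP targets. Over all tested genes, 0 were higher and 1 lower; the counts were 1 higher and 3 lower with DESeq2, 4 and 6 with no filter on low counts, and 0 and 2 by library totals alone, and 1 to 2 were lower with 1 library left out. By library totals alone the log2 fold changes of Stk4 (-0.021) and Nf2 (-0.016) changed sign, and with spike-in scaling those of Amotl2 (0.019), Sema4c (0.027) and Lin7c (0.034). With each library left out in turn, log2 fold changes that changed sign ran from -0.13 to 0.016 for Yap1, -0.11 to 0.0062 for Wwtr1, -0.068 to 0.16 for Stk4, -0.084 to 0.089 for Amotl2, -0.027 to 0.28 for Vgll4, -0.011 to 0.057 for Nf2, -0.027 to 0.68 for Ccn1, -0.17 to 1.03 for Ccn2, -0.094 to 0.042 for Sema4c, -0.14 to 0.0083 for Rpia and -0.094 to 0.049 for Lin7c. Sav1 ran from -0.52 to -0.27. The unadjusted edgeR p of Sav1 was 0.173 with spike-in scaling, 0.0536 without control replicate 1, 0.0987 without control replicate 3 and 0.120 without GR-cKO replicate 3. In the remaining fits, DESeq2 and limma voom among them, its unadjusted p was 0.0153 to 0.0379. Differences in share ran from -1.25 to 2.35 percentage points for Wwtr1, -2.21 to 1.99 for Tead1, -3.01 to -1.35 for Lats2 and 0.995 to 5.13 for Stk4; the cause was not tested.

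Deviations of same-numbered libraries from their group means correlated at 0.062, 0.056 and 0.014 across genes, and those of differently numbered libraries at -0.089 to 0.029. Same-numbered libraries also had the same called sex, female for replicate 1 and male for replicates 2 and 3. These values cannot show whether same-numbered libraries were paired. With the replicate block 1 gene was lower and 0 higher, and Sav1 had a log2 fold change of -0.42 (edgeR, unadjusted p = 0.0331, adjusted p = 1.00).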
